A study of Mus musculus with 8 samples.

Results

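Potassium channels of the Kv7 and EAG families were followed in RNA from the ventral pallidum (VP) of mice. The 8 genes were chosen by name: the Kv7 genes Kcnq3 and Kcnq5, the EAG genes Kcnh1 and Kcnh5, the ERG genes Kcnh2 and Kcnh7, and the ELK genes Kcnh3 and Kcnh4. They are 8 of the 14353 genes in the deposited table, and all 8 were among the 14249 genes tested, those over 1 CPM (read counts scaled to library size) in at least 3 libraries. The study sequenced 2 fractions of VP tissue from untreated vGluT2-Cre x Rpl22 (RiboTag) mice, to learn which channel genes are translated in vGluT2 neurons. TRAP is mRNA pulled down with HA-tagged ribosomes, which only cells with a history of Cre expression carry. INPUT is taken here, by the labels, as RNA of the lysate before the pull-down, from neurons and glia alike. The paper's methods once name an unbound fraction as sequenced, and its text gives other numbers of samples and mice than the labels, which are used here. All mice were homozygous for VGluT2-Cre and heterozygous for Rpl22, so both fractions share the genotype, and Cre was driven from the vGluT2 locus. A library of each fraction was made from every one of 4 pools (so n = 4 per fraction), and values are listed below in the order VP1.6, VP2.2, VP2.6, VP2.11. A pool held 7 to 11 mice of both sexes, 38 in all (15 male and 23 female), aged 9 to 12 weeks in VP1.6 and 10 to 16 weeks in the other pools.

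Kv7 channels open slowly near the firing threshold and do not inactivate. The current they carry in neurons is called the M-current, because muscarinic receptors suppress it: Gq activates phospholipase C, which breaks down the membrane lipid PIP2 that the channels need to open. EAG channels open on depolarization, ERG channels recover from inactivation and close slowly on repolarization, and ELK channels open at negative voltages, so that each group can restrain repetitive firing in its own voltage range. These are general properties of the channels and were not measured here.

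Potassium channels carry a selectivity filter, a glycine, an aromatic residue and a glycine that line the pore. The coding bases around it are shown because they separate Kcnq3 from the EAG family: the middle residue is tyrosine in Kcnq3 and phenylalanine in the 6 EAG family genes. Each line gives 30 bases of the GENCODE M21 transcript, 5′ to 3′ on the coding strand, with the 3 filter codons in capitals.
Kcnq3: ctggccaccattGGTTATGGAgacaagaca
Kcnh1: ctcaccagtgtgGGCTTTGGTaacattgcc
Kcnh5: cttacaaccataGGATTTGGAaacatagct
Kcnh2: ctcaccagcgtgGGCTTTGGCaatgtctct
Kcnh7: ctaaccagtgtaGGATTTGGAaatgtgtct
Kcnh3: ctcaccagtgtgGGCTTCGGCaacgtgtcc
Kcnh4: ctcaccagtgtaGGCTTCGGCaacgtgtgt
Over the whole translated proteins, of 873 residues (Kcnq3) to 1195 residues (Kcnh7), aligned residues were identical at 75.4% for Kcnh1 and Kcnh5, 64.1% for Kcnh2 and Kcnh7, 56.3% for Kcnh3 and Kcnh4, and 48.5% for Kcnq3 and Kcnq5. Even the closest pair, Kcnh1 and Kcnh5, differed at 10 of the 30 bases shown, while Kcnh3 and Kcnh4 differed at 3.

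One property of the deposited values bears on every result. In 14247 of the 14249 genes tested (99.99%), the TRAP and INPUT values of all 4 pools lay on opposite sides of 1 level common to the pools. When each TRAP library was set beside the INPUT library of another pool, the share was 47.9% to 55.8%. Values from which a shift per gene and pool has been taken out behave in this way, and the methods describe no such step. Differences within a pool are left whole by such a step, but the spread of a level across pools is not, and the 8 values of a gene then hold only 4 independent differences. A gene higher in TRAP in all 4 pools then necessarily has every TRAP value above every INPUT value: 3320 genes met the first condition and 3320 met the second. The results below therefore rest on the fit in which pool is a block. The fit without the block and, for Kcnh7, the exact permutation test over 8 libraries are given beside it. Both take the 8 values of a gene as independent, which they are not. Over all genes the fit without the block called more (6830 against 4592), but for a single gene its p can be the larger, as it was for Kcnh7.

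With the pool as a block, 1 of the 8 channel genes was higher in TRAP, the ERG gene Kcnh7, at 3.38-fold. No channel gene was lower. Over all genes tested, 15.4% were called higher and 16.8% lower in this fit, so the count of 1 in 8 is near the background. Without the block, 3 members were called higher (Kcnh7, Kcnh1 and Kcnh5) and 0 lower, against 23.2% and 24.8% of all genes. The same 3 members were higher in TRAP in all 4 pools and 0 were lower in all 4, against 23.3% and 24.4% of all genes. The median TRAP minus INPUT difference was 0.42 on the log2 scale over the members and -0.05 over all genes tested. In bulk libraries, fewer cells of a type and less RNA per cell cannot be told apart.

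**Figure D1:**
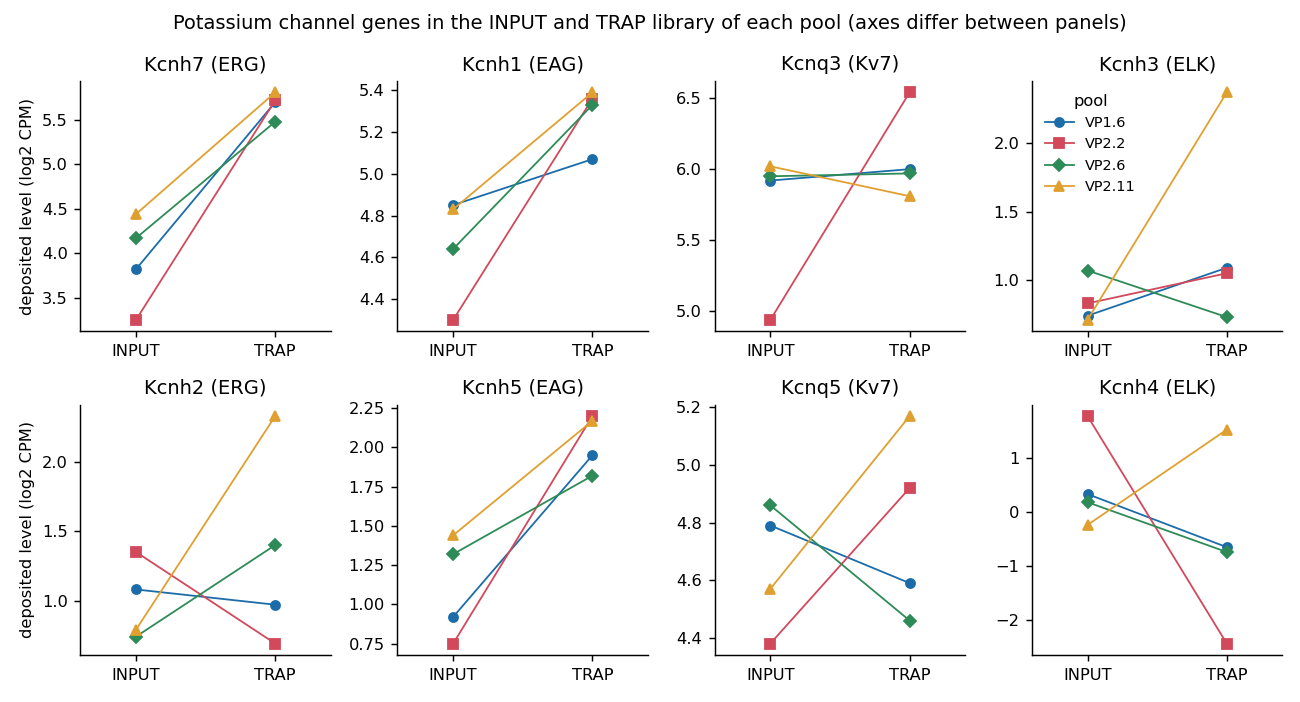
Deposited level (log2 CPM) of each channel gene in the INPUT and TRAP library of each pool, with a line joining the libraries of 1 pool and a separate vertical axis per panel. Lines rise in all 4 pools for Kcnh7, Kcnh1 and Kcnh5, and run in both directions for the other 5 genes. The spread of the points within a fraction is not independent of the slopes, because the values of a pool lie on opposite sides of a common level.

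Kcnh7 (ENSMUSG00000059742), which encodes the ERG channel Kv11.3, lies on chromosome 2 of GRCm38 at 62693414 to 63184287, minus strand. Its TRAP level was 51.9 CPM in VP1.6, 52.7 in VP2.2, 44.6 in VP2.6 and 56.1 in VP2.11, and its INPUT level was 14.1, 9.51, 18.0 and 21.7 CPM in the same order. Every pool had the higher level in TRAP. The log2 differences within the pools were 1.88, 2.47, 1.31 and 1.37, with a mean of 1.76 (standard error 0.26 with the block, 95% interval 1.21 to 2.31). Limma's adjusted p was 0.00025 with the block and 0.00029 without it. An exact two-sided sign-flip permutation test over the 4 pools gave p = 0.125, the smallest that 4 pools allow. The exact permutation test over the 8 libraries gave p = 0.029, also its smallest. The difference was larger than that of 98.4% of the genes tested. TRAP minus INPUT also rose with exon length across genes (Spearman's rho 0.412 over 14249 genes, which are not independent replicates), and Kcnh7, at 15226 bp of exon, is the longest member. With that trend taken out, the log2 difference of Kcnh7 was 1.24 (adjusted p = 0.0043 with the block). Of its exon bases, 696 are shared with Gca on the opposite strand, and whether the counting used strand is not given in the sources used here. Gca itself had a log2 difference of -0.24 (adjusted p = 0.52 with the block).

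Kcnh2 (ENSMUSG00000038319), the other ERG gene, encodes Kv11.1, the channel of the cardiac rapid delayed rectifier, and lies on chromosome 5 at 24319589 to 24351604, minus strand. On the log2 CPM scale, its levels were 0.97, 0.69, 1.4 and 2.33 in TRAP and 1.08, 1.35, 0.74 and 0.79 in INPUT. The pools were split, with TRAP lower in VP1.6 and VP2.2 and higher in VP2.6 and VP2.11. The mean log2 difference was 0.35 (standard error 0.52 with the block, adjusted p = 0.63 with it and 0.46 without it), and the 95% interval, -0.75 to 1.46, leaves a change in either direction possible. Without VP2.11 the difference was -0.04.

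The 2 ERG genes were set side by side within each pool. The log2 difference of Kcnh7 exceeded that of Kcnh2 by 1.4 on average (SD 1.46 over 4 pools), and did so in 3 of 4 pools. The exact two-sided sign-flip permutation test gave p = 0.25, or 0.5 adjusted over the 4 pairs compared. The test of the pair therefore did not show that they differ, and 4 pools could not have taken it below 0.125.

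Kcnh1 (ENSMUSG00000058248) encodes the EAG channel Kv10.1 and lies on chromosome 1 at 192190774 to 192510159, plus strand. The 4 TRAP libraries held 33.7, 41.1, 40.2 and 41.9 CPM, and the INPUT libraries 28.8, 19.8, 25.0 and 28.4 CPM. TRAP was the higher in every pool, by little in VP1.6. The log2 differences were 0.22, 1.06, 0.69 and 0.56, with a mean of 0.63 (standard error 0.24 with the block, 95% interval 0.13 to 1.14). With the block, limma's adjusted p was 0.053 and the gene was not called, whereas leaving the block out gave 0.0078. The exact sign-flip permutation test over the 4 pools gave p = 0.125. With the exon length trend taken out, the log2 difference was 0.43 (adjusted p = 0.2 with the block).

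Kcnh5 (ENSMUSG00000034402) encodes the second EAG channel, Kv10.2, and lies on chromosome 12 at 74897220 to 75177332, minus strand. Its levels were 3.85, 4.6, 3.54 and 4.5 CPM in TRAP and 1.89, 1.69, 2.5 and 2.71 CPM in INPUT. Each pool had more in TRAP. The log2 differences of 1.03, 1.45, 0.5 and 0.73 gave a mean of 0.93 (standard error 0.43 with the block, 95% interval 0.01 to 1.84), and limma's adjusted p with the block was 0.11, against 0.013 when the block was left out. The low level could be read as whole reads in 2 pools: 73 TRAP and 81 INPUT reads in VP2.2, and 34 and 48 in VP2.6. Scaled to depth, TRAP over INPUT was then 2.73 (95% interval 1.96 to 3.79) in VP2.2 and 1.41 (0.879 to 2.23) in VP2.6. These intervals cover counting error only. The EAG genes differed from each other by -0.29 in log2 difference (Kcnh1 minus Kcnh5, SD 0.42 over 4 pools, exact sign-flip permutation p = 0.375, adjusted 0.5).

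**Figure D2:**
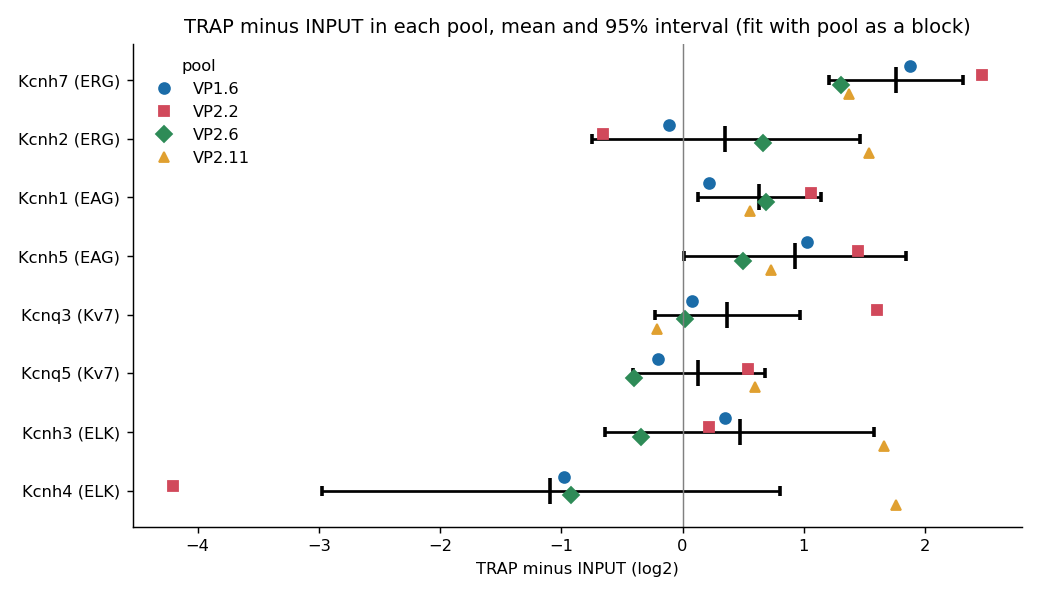
TRAP minus INPUT (log2) of each channel gene. Colored points are the 4 pools, the vertical tick is the mean and the horizontal bar the 95% interval from the fit in which pool is a block. The interval of Kcnh7 runs from 1.21 to 2.31, and Kcnh4 spans -4.2 in VP2.2 to 1.76 in VP2.11.

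Kcnq3 (ENSMUSG00000056258) encodes Kv7.3, a subunit of the M-channel, and lies on chromosome 15 at 65986387 to 66286642, minus strand. In TRAP it was measured at 63.9, 93.2, 62.5 and 56.1 CPM, and in INPUT at 60.5, 30.8, 61.8 and 64.9 CPM. Only VP2.2 stood apart: the log2 difference was 1.6 there and 0.08, 0.02 and -0.21 in VP1.6, VP2.6 and VP2.11. The mean was 0.37 (standard error 0.28 with the block, 95% interval -0.23 to 0.97, adjusted p = 0.33 with the block and 0.24 without it), and without VP2.2 it was -0.04. It was also -0.14 with the exon length trend taken out.

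Kcnq5 (ENSMUSG00000028033) encodes Kv7.5, which also contributes to the M-current, and lies on chromosome 1 at 21398403 to 21961942, minus strand. The 4 TRAP libraries held 24, 30.2, 22.0 and 36.0 CPM, and the INPUT libraries 27.7, 20.8, 29.0 and 23.8 CPM. The pools were split again, with log2 differences of -0.2, 0.54, -0.4 and 0.6. The mean was 0.13 (standard error 0.26 with the block, 95% interval -0.41 to 0.68, adjusted p = 0.72 with the block and 0.58 without it). Its direction was not stable, as the value was -0.0019 without VP2.2, -0.02 without VP2.11 and -0.17 with library weights. Of its exon bases, 237 are shared with the noncoding gene Gm26580 on the opposite strand. The Kv7 genes differed from each other by 0.24 in log2 difference (SD 0.78 over 4 pools, exact sign-flip permutation p = 0.625, adjusted 0.625).

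Kcnh3 (ENSMUSG00000037579) encodes the ELK channel Kv12.2 and lies on chromosome 15 at 99224861 to 99242817, plus strand. Its levels were 2.13, 2.07, 1.66 and 5.17 CPM in TRAP and 1.67, 1.78, 2.1 and 1.64 CPM in INPUT. The log2 difference was 1.66 in VP2.11, and 0.35, 0.22 and -0.34 in VP1.6, VP2.2 and VP2.6. The mean log2 difference was 0.47 (standard error 0.52 with the block, 95% interval -0.64 to 1.58, adjusted p = 0.52 with the block and 0.32 without it). It was 0.08 without VP2.11.

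Kcnh4 (ENSMUSG00000035355) encodes the ELK channel Kv12.3 and lies on chromosome 11 at 100740376 to 100759942, minus strand. In TRAP it was measured at 0.637, 0.186, 0.597 and 2.87 CPM, and in INPUT at 1.26, 3.42, 1.13 and 0.844 CPM. TRAP was lower in 3 pools and higher in VP2.11. The log2 differences of -0.98, -4.2, -0.92 and 1.76 had a mean of -1.09 (standard error 0.88 with the block, 95% interval -2.97 to 0.8, adjusted p = 0.37 with the block and 0.27 without it). The extreme difference in VP2.2 rested on 1 TRAP read against 83 INPUT reads, a depth-scaled ratio of 0.0365 (95% interval 0.000913 to 0.209). Those reads come to 0.0735 and 2.01 CPM, against the deposited 0.186 and 3.42 CPM, so both deposited values lie above those that the reads give. In VP2.6 it had 10 and 39 reads and a ratio of 0.509 (0.227 to 1.04). The ELK genes differed from each other by 1.56 in log2 difference (Kcnh3 minus Kcnh4, SD 2.0 over 4 pools, exact sign-flip permutation p = 0.25, adjusted 0.5).

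The low members could be read as reads only in part. Depth was recovered for VP2.2 (13.6 M reads in TRAP and 41.2 M in INPUT) and VP2.6 (13.6 M and 27.0 M). It is unknown for VP1.6 and VP2.11, where the search for whole reads gave no depth. Kcnh2 had 14 TRAP and 69 INPUT reads in VP2.2, a depth-scaled ratio of 0.615 (95% interval 0.319 to 1.1), and 42 and 53 in VP2.6, a ratio of 1.57 (1.02 to 2.4). Kcnh3 had 27 and 71 reads in VP2.2, a ratio of 1.15 (0.711 to 1.82), and 18 and 46 in VP2.6, a ratio of 0.777 (0.424 to 1.37). Kcnh2, Kcnh3 and Kcnh4 each had a high difference in VP2.11 (1.54, 1.66 and 1.76). When limma estimated library weights, TRAP VP2.11 had the lowest of the 8 libraries (0.226) and INPUT VP2.2 the next lowest (0.336). VP2.2 gave Kcnh7, Kcnh1, Kcnh5 and Kcnq3 their largest log2 differences (2.47, 1.06, 1.45 and 1.6). Whether these differences have to do with the weights was not tested.

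Levels of different genes were compared per kb of exon. In TRAP the order of mean log2 CPM per kb was Kcnh1 (2.42 ± 0.15, SD, n = 4), Kcnq3 (2.2 ± 0.32), Kcnq5 (1.84 ± 0.32), Kcnh7 (1.75 ± 0.14), Kcnh5 (0.01 ± 0.18), Kcnh2 (-0.93 ± 0.72), Kcnh3 (-1.21 ± 0.72) and Kcnh4 (-2.56 ± 1.62). The first 4 were within their spread of their neighbours. Kcnh7 exceeded Kcnh5 by 1.73 ± 0.1 (SD) in all 4 TRAP libraries, as Kcnh5 did Kcnh2 (0.95 ± 0.72) and Kcnh3 did Kcnh4 (1.34 ± 1.13). In INPUT the order was Kcnq3 (1.83 ± 0.51), Kcnh1 (1.78 ± 0.25), Kcnq5 (1.71 ± 0.22), Kcnh7 (-0.01 ± 0.51), Kcnh5 (-0.91 ± 0.33), Kcnh2 (-1.29 ± 0.28), Kcnh4 (-1.47 ± 0.88) and Kcnh3 (-1.69 ± 0.16). There Kcnq5 exceeded Kcnh7 by 1.72 ± 0.44 in all 4 libraries. Kcnh7 thus lay within the spread of Kcnq5 in TRAP and below it in INPUT. Kcnh7 also exceeded Kcnh5 by 0.9 ± 0.22 in all 4 INPUT libraries, and the remaining neighbours in INPUT were within their spread. These SDs and the counts of libraries carry the pool structure described above. A shift per gene and pool would not cancel between different genes of a library. With the length of the longest transcript in place of the exon total, Kcnq3 came before Kcnh1 and Kcnh3 before Kcnh2 in TRAP. In INPUT, Kcnq5 came before Kcnh1, and Kcnh3 before Kcnh2 and Kcnh4.

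**Figure D3:**
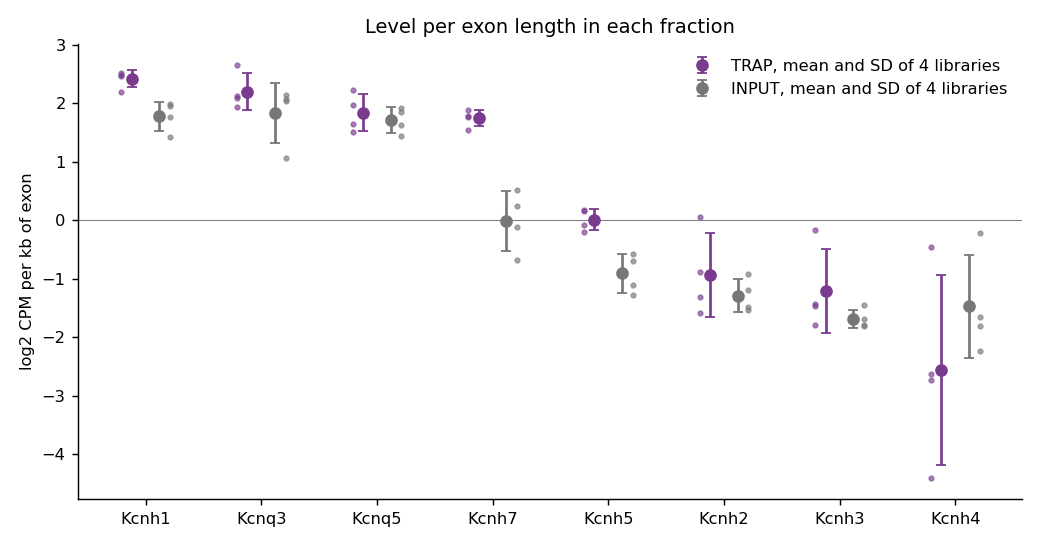
Level of each channel gene in log2 CPM per kb of exon, in TRAP and INPUT. Large points and bars are the mean and SD of 4 libraries, and small points the libraries. Kcnh7 lies at 1.75 in TRAP and -0.01 in INPUT, the widest gap among the 8 genes.

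The other EAG family genes in the table, which are no members, were the ERG gene Kcnh6 and the ELK gene Kcnh8. Kcnh6 had a log2 difference of -1.26 (adjusted p = 0.11 with the block) and Kcnh8 of 0.81 (adjusted p = 0.28). For comparison, of 22 other voltage-gated pore genes (Kcna to Kcnd, Kcnf, Kcng, Kcns and Kcnv), 5 were higher and 2 lower with the block (15.4% and 16.8% of all genes), and 7 and 2 without it (23.2% and 24.8%), with a median log2 difference of 0.45.

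Genes that control the M-channel were followed as 5 lists. Of 32 genes listed, 25 were tested, of which, with the block, 6 were higher in TRAP and 0 lower. Over all genes tested the shares were 15.4% and 16.8%. Without the block, 9 were higher and 2 lower, against 23.2% and 24.8% of all genes. Their median log2 difference was 0.28, and -0.05 over all genes. The trend with exon length described for Kcnh7 was not taken out of the values of these genes. The KCNE subunits and Plcb3 were not analysed here.

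Among the 5 muscarinic receptors, Chrm2, which couples to Gi, was higher with the block (log2 difference 1.06, adjusted p = 0.01). Of the receptors that couple to Gq, Chrm1 and Chrm3 had differences of -0.02 and 0.28 (adjusted p = 0.94 and 0.61), and Chrm5 had 0.71 (adjusted p = 0.24 with the block and 0.04 without it). Of 5 genes of Gq and phospholipase C, Plcb4 was higher at 1.91 (adjusted p = 8.5e-05) and Plcb1 at 1.62 (adjusted p = 0.00024). Both encode beta-type phospholipases that cleave PIP2. Gna11, a Gq-class alpha subunit, had -0.64 (adjusted p = 0.057 with the block and 0.021 without it).

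Of 6 genes of PIP2 synthesis and breakdown, 1 was higher with the block. It was Synj1, which encodes the PIP2 phosphatase synaptojanin, at 1.53 (adjusted p = 0.00042). The lipid kinase genes Pi4ka and Pip5k1a had 0.61 and -0.38 (adjusted p = 0.066 and 0.18 with the block, and 0.024 and 0.02 without it). Of 9 genes for calmodulin, kinases and anchoring proteins, 2 were higher with the block. They were Prkca, which encodes protein kinase C alpha, at 1.62 (adjusted p = 0.00047), and the ubiquitin ligase gene Nedd4l at 0.64 (adjusted p = 0.033). Prkcb had 0.56 (adjusted p = 0.11 with the block and 0.047 without it). Ank3, which encodes the ankyrin that holds Kv7 channels at the axon initial segment, had 0.41 (adjusted p = 0.17). Chrm2, Plcb1, Plcb4, Synj1, Prkca and Nedd4l were higher in TRAP in every pool. Each had its largest log2 difference in VP2.2 (1.76, 2.35, 2.8, 2.27, 2.55 and 1.04).

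**Figure D4:**
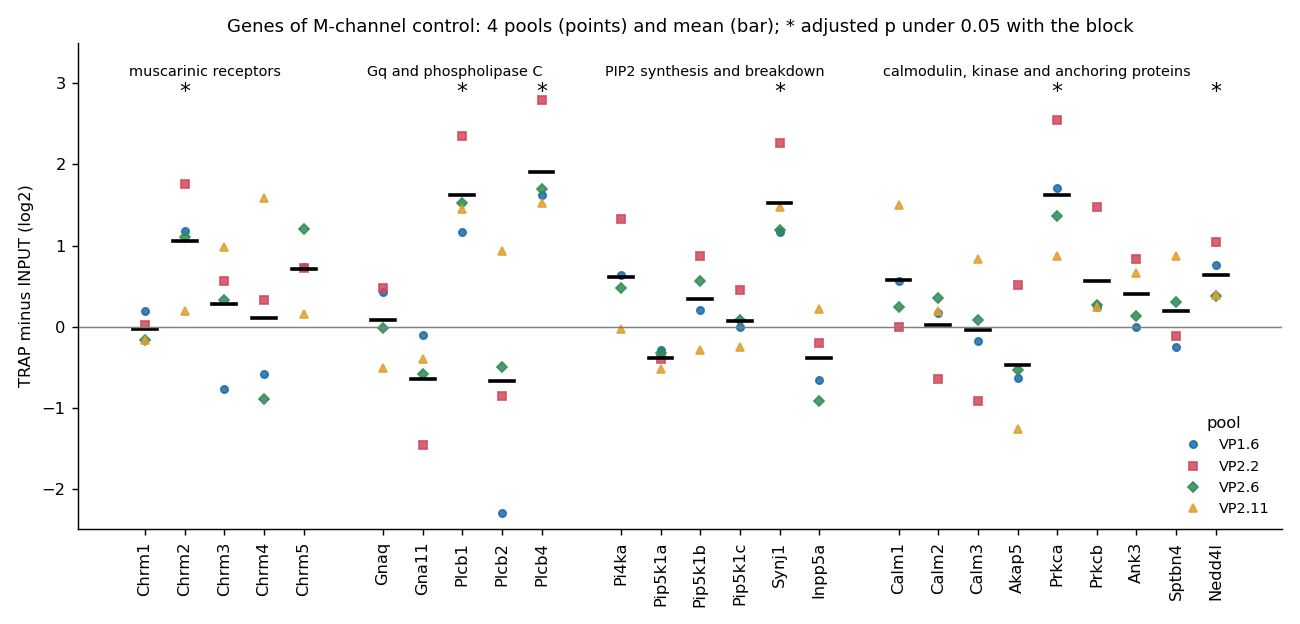
TRAP minus INPUT (log2) of 25 genes of M-channel control in 4 lists, with a point per pool and a bar at the mean. An asterisk marks the 6 genes with an adjusted p under 0.05 in the fit with the block: Chrm2, Plcb1, Plcb4, Synj1, Prkca and Nedd4l.

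The pull-down was checked with the target gene and markers of other cells. Slc17a6, which encodes vGluT2, was higher in TRAP by 2.55 (adjusted p = 7.3e-06 with the block). With the block, 4 of 4 striatal, 4 of 5 astrocyte, 4 of 5 oligodendrocyte and 3 of 5 microglia markers were lower in TRAP. The oligodendrocyte marker Mag went the other way, at 0.61 (adjusted p = 0.072 with the block and 0.035 without it). Aldh1l1 of astrocytes and C1qa and Csf1r of microglia had -0.27, -1.42 and -0.49 (adjusted p = 0.41, 0.068 and 0.19 with the block). Of the 3 GABA genes, Slc32a1 was lower (-1.26, adjusted p = 0.0055), while Gad1 and Gad2 had differences of 0.3 and -0.05 (adjusted p = 0.47 and 0.92) and mean TRAP levels of 613 and 528 CPM. Of the 3 cholinergic genes, Slc18a3 was lower (-1.75, adjusted p = 0.013), and Chat and Slc5a7 had 0.7 and 0.81 (adjusted p = 0.066 and 0.083). The striatal and glial markers were still detected in TRAP. Summed levels in TRAP and INPUT ran from 145 to 203 and from 350 to 510 CPM for the striatal list. For astrocytes they ran from 150 to 253 and from 343 to 502 CPM. For oligodendrocytes they ran from 900 to 1630 and from 3510 to 3810 CPM, and for microglia from 16.6 to 25.5 and from 57.5 to 92.3 CPM. Of the markers tested, 1 was under 1 CPM in every TRAP library, the microglia gene Tmem119. In each of 3 further pairs, 1 gene was higher in TRAP with the block and the other was not called. For other glutamatergic neurons these were Slc17a7 (1.45) and Slc17a8 (-0.03, adjusted p = 0.97), for oligodendrocyte precursors Cspg4 (1.98) and Pdgfra (-0.28, adjusted p = 0.63), and for endothelium Flt1 (2.37) and Pecam1 (0.59, adjusted p = 0.49). The part of these other cells in the channel genes' values was not tested.

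The genes most like each channel gene were sought by Pearson's correlation of log2 CPM over the 8 libraries, as a description. They were Prkci and Igsf3 for Kcnh7 (0.9987 and 0.9986), Prpf38b and Vps13c for Kcnh1 (0.9977 and 0.9974), and Abcg2 and Zwilch for Kcnh5 (0.9975 and 0.997). With the pool structure above, such a correlation reflects little beyond the 4 differences within pools, and each was picked as the highest over all genes tested.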

How the data were processed

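RNA-seq of TRAP and INPUT from 4 VP pools (8 libraries) was analysed. Per the methods and labels, the authors aligned reads with STAR 2.5.1a to GRCm38 with Ensembl annotation, took unique reads for each gene by featureCounts, scaled libraries by TMM in edgeR and fitted limma with voom and quality weights. The per-library values they deposited are log2 CPM. The table's other columns, the authors' log2 fold changes with limits, p-values, linear fold changes and transcript counts per gene, were not used. Of 14398 entries, 45 repeats were left out.

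The deposited values show the signature of a shift per gene and pool having been taken out, which the methods do not describe. It was found while checking why 2 counts were identical, after the tests had been set. The test set at the outset was limma 3.58.1 under R 4.3.3 (lmFit, eBayes with trend) on fraction alone, with Benjamini-Hochberg adjustment over 14249 genes and a threshold of 0.05. It takes 8 values as independent where 4 differences are. The report therefore leads with the fit in which pool is a block and prints both. Both fits were also run on simulated data, with the outcome not reported here, so that run lends neither fit support. Pools pair the libraries, since the labels describe TRAP and INPUT as taken from 1 homogenate. Deviations of paired libraries from their fraction means correlated at -0.745, -0.661, -0.743 and -0.495. Limma's p-values with the block weigh the mean difference against the spread of differences over 4 pools of mice. For each gene limma moderates that spread toward a trend over all genes, so it is not the pool spread alone. P-values without the block use the spread of libraries within a fraction.

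Whole reads were sought in differences within pools. They matched 96.8% of 1863 low genes in VP2.2 and 99.5% of 1852 in VP2.6, within 2e-08 on the log2 scale. Read ratios have exact 95% intervals for counting error only. Positions, exon lengths and coding bases came from GENCODE M21 (GRCm38), by gene identifier. All 8 members are named, and from each list the genes called in either fit, up to 4 by size. Members and lists were chosen with earlier results of these data known. Kv7 genes other than Kcnq3 and Kcnq5 are not reported here.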

Additional observations from a re-analysis of the deposited data

Results flagged for a closer look

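The INPUT level of Kcnq3 in VP2.2, 4.94 log2 CPM, lay far below the other INPUT libraries, at 5.92 to 6.02. It was the 1 of 16 sets of 4 libraries in which 1 library stood so far apart, where 0.8 would be found at the 95% critical value of Dixon's test. In the deposited values a low INPUT goes with a high TRAP of the same pool, so the value mirrors the log2 difference of 1.6 in VP2.2 and is not separate from it.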

How the results depend on the processing

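The calls for Kcnh1 and Kcnh5 changed with several settings. Without the block 6830 genes and 3 members were called. With the replicate block the counts were 4592 genes and 1 member higher. The median of the members is 0.42 in both fits by construction, and was 0.24 with library weights and 0.7 with quantile normalization. With the block and the exon length trend taken out, they were 3775 genes and 1 member, and asking also for a log2 fold change of 1 or more in size, with no block, 3528 genes and 1 member. With the block and library weights, 2 members were higher, Kcnh7 and Kcnh1 (0.55, adjusted p = 0.037). Without the block, Kcnh1 lost its call with the length trend taken out (adjusted p = 0.051) or without VP2.6 (0.055), and Kcnh5 without VP1.6 (0.06) or VP2.2 (0.066). Taking out the length trend moved the median of all genes from -0.05 to 0.07.

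Leaving out 1 pool or library at a time gave 3232 to 7167 genes, 1 to 3 members higher and 0 to 1 lower. The member called lower was Kcnh4, at -2.04 without VP2.11 and -1.78 without its TRAP library (adjusted p = 0.039 for both, no block), and with the block it was not called (lowest adjusted p = 0.11). Leaving out pools with the block was added after seeing the data. The median of the members ran from 0.29 to 0.57.

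Kcnh7 was called under all 25 alternatives. Directions reversed for Kcnq3, to -0.14 with the length trend taken out (with and without the block) and -0.04 without VP2.2 (range with a pool left out -0.04 to 0.56), and for Kcnh2, to -0.04 without VP2.11 (-0.04 to 0.69). For Kcnq5 they reversed to -0.17 with library weights, -0.11 with weights and the block, -0.09 with the length trend taken out, -0.0019 without VP2.2 and -0.02 without VP2.11 (-0.02 to 0.31). Kcnh3 was called higher (0.97, adjusted p = 0.035) with quantile normalization and no block. The cause of these changes was not tested. Depth is known for 2 pools only.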
